A study of Homo sapiens with 15 samples.

Results

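The surface marker genes described here were VCAM1 and SIRPA, whose proteins are used to sort cardiomyocytes from differentiating human cultures, and PDGFRA, PDGFRB, CD44, NT5E and THY1, whose proteins mark progenitor, mural or stromal cells. These 7 of the 60605 genes in the deposited table were found by their symbols, and all 7 were above the filter on low values, which asked for 1 FPKM or more in any library. The genes were chosen from levels measured in these same libraries, by arm and day, so their own values are a description and carry no test. Transcripts were counted in 15 bulk RNA sequencing libraries of the established human embryonic stem cell line H1 (wild type), 1 library for each arm and day. All cells received the WNT activator CHIR99021 on Day 0 and, by the study's methods, insulin on Day 1. The Day 0, Day 1 and Day 2 libraries preceded the split into arms. From Day 2 the NP-ctrl arm stayed in place without an inducer, and the passaged arm was dissociated and replated without a WNT inhibitor. The NP-IWP2 arm stayed in place and received IWP2, a blocker of WNT secretion. By the methods IWP2 was given from Day 2 and was absent from Day 5 onward. Each arm was sampled on Days 3, 5, 7 and 10. By the study's methods, passaging also brought dilution, EDTA and the ROCK inhibitor Y27632, which cannot be told apart from replating in these libraries. The paper varied EDTA, split ratio and Y27632 separately in other experiments on cardiac fate. All libraries come from 1 line.

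VCAM1 is an adhesion molecule of the immunoglobulin superfamily that binds integrins of the alpha-4 group and is made by cardiomyocytes during early differentiation. SIRPA is an inhibitory receptor for CD47 that recruits the phosphatases PTPN6 and PTPN11. PDGFRA and PDGFRB are receptor tyrosine kinases for the platelet-derived growth factors, the former known from early mesoderm and cardiac progenitors and the latter from pericytes and other mural cells. CD44 is the main receptor for hyaluronan. NT5E (CD73) converts extracellular AMP to adenosine, and THY1 (CD90) is a GPI-anchored glycoprotein found on human embryonic stem cells as well as on fibroblasts. NT5E, THY1 and ENG together, in the absence of blood markers, are the usual surface definition of mesenchymal stromal cells in culture.

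Promoters of VCAM1, PDGFRB and PDGFRA are shown first, since these members had the largest differences between arms on the log2(FPKM + 1) scale. Of the 7 members, 5 matched the RefSeq promoter table, with 6 windows of the 250 bases before a start site (build GRCh38.p14, read 5′ to 3′ on the strand of the gene, positions counted back from -1 at the base before the start). Capitals mark a match on either strand to a motif searched: TATAAA (the core of the TATA box), GATAA (read by GATA factors), GGAATG (by TEAD factors), AAGTG (by NKX2-5), GGGCGG (by SP1) or GGGNTTNCC (a form of the NF-kB site).
VCAM1, chr1:100719492-100719741, plus strand: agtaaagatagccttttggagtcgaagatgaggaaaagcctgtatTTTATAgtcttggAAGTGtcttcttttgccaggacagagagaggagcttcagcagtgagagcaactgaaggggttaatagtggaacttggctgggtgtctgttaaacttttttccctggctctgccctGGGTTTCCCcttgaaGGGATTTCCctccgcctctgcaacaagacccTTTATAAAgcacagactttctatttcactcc
PDGFRA, chr4:54229043-54229292, plus strand: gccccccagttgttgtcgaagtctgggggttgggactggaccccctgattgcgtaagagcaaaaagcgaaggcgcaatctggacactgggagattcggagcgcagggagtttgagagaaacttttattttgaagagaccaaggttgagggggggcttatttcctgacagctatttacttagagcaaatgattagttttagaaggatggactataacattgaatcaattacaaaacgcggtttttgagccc
PDGFRB, chr5:150155846-150156095, minus strand: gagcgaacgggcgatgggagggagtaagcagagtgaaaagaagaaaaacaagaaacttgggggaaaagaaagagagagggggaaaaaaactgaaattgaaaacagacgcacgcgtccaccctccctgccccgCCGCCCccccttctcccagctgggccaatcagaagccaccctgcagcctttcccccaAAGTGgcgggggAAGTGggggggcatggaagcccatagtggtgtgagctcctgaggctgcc
The VCAM1 window held TATAAA from -29 to -24, GGGNTTNCC from -77 to -69 and from -62 to -54, and AAGTG from -192 to -188. TATAAA also matched its minus strand from -31 to -26, which overlaps the plus-strand match, and from -205 to -200. Among the 35116 windows in the table, 10.7% held TATAAA, 4.70% GGGNTTNCC and 37.6% AAGTG. No other member window held TATAAA or GGGNTTNCC. The PDGFRA window printed here held no match, while a further PDGFRA window, before the start site at 54233960, held GGGCGG at -139 and at -27. The PDGFRB window held AAGTG at -61 and at -49 and, on its minus strand, GGGCGG from -118 to -113, a motif found in 42.6% of all windows. GATAA, in 20.4% of windows, and GGAATG, in 11.9%, were in none of the 6. A match is a string of letters in the window and no measure of binding.

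Library totals ran from 13254723 to 20250115 counts, with a median of 15269132. FPKM below is the count scaled by gene length and by library total, and ratios between libraries are ratios of FPKM with exact 95% Clopper-Pearson intervals that cover counting error only. Since each arm and day is 1 library, no ratio has a replicate check. The lowest mitochondrial share of counts, 1.53%, was in the passaged library of Day 3 and the highest, 10.3%, in that of Day 10. In bulk RNA, fewer cells of a type and less RNA per cell cannot be told apart.

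VCAM1 had the largest difference between arms of the 7 members on the log2(FPKM + 1) scale, 4.74 for passaged minus NP-ctrl on Day 10. The gene (ENSG00000162692, chromosome 1, 100719742 to 100739045) had 0 counts on Days 0, 1 and 2, and on Day 3 it had 1 count in the passaged library and 0 in the others. In the passaged arm it then stood at 4.10 FPKM on Day 5, 84.1 on Day 7 and 379 on Day 10. In NP-IWP2 it was at 0.34, 13.0 and 51.9 FPKM, and in NP-ctrl at 0.77, 2.74 and 13.2. The order of the arms on Days 7 and 10 was thus passaged, NP-IWP2, NP-ctrl, while on Day 5 NP-IWP2 was the lowest. Against NP-ctrl the passaged VCAM1 level was 5.33-fold (4.14 to 6.94) on Day 5, 30.7-fold (26.8 to 35.2) on Day 7 and 28.7-fold (27.0 to 30.5) on Day 10. Against NP-IWP2 it was 12.1-fold (8.29 to 18.3), 6.48-fold (6.10 to 6.88) and 7.31-fold (7.09 to 7.53). NP-IWP2 against NP-ctrl was 0.440-fold (0.276 to 0.685) on Day 5, 4.73-fold (4.10 to 5.49) on Day 7 and 3.93-fold (3.68 to 4.20) on Day 10. From Day 5 to Day 7 the VCAM1 level multiplied 20.5 times (18.5 to 22.8) in the passaged arm, 38.3 times (26.6 to 57.5) in NP-IWP2 and 3.56 times (2.72 to 4.71) in NP-ctrl.

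SIRPA, unlike VCAM1, was read in every library. The gene (ENSG00000198053, chromosome 20, 1894167 to 1940592) was at 4.61, 5.10 and 3.20 FPKM on Days 0, 1 and 2. On Day 3 the arms lay between 3.52 and 3.72 FPKM, with a passaged to NP-ctrl ratio of 0.946 whose interval (0.795 to 1.13) includes 1. On Days 5, 7 and 10 SIRPA was at 7.28, 14.3 and 22.6 FPKM in the passaged arm, at 3.31, 9.28 and 14.9 in NP-IWP2 and at 3.55, 4.20 and 6.35 in NP-ctrl. The passaged library was the highest on each of those days, and NP-IWP2 left the level of NP-ctrl between Day 5 and Day 7. On Day 10 the ratio to NP-ctrl was 3.56 (3.20 to 3.97) for the passaged arm and 2.35 (2.10 to 2.63) for NP-IWP2, and passaged to NP-IWP2 was 1.51 (1.41 to 1.63). The range of SIRPA between arms was narrower than that of VCAM1: on Day 10 the ratio of VCAM1 to SIRPA FPKM was 2.08 in the NP-ctrl library, 3.47 with IWP2 and 16.8 after passaging. Counts for its paralogs SIRPB1, SIRPB2, SIRPG and SIRPD did not go above 3 in any library. An antisense gene that overlaps SIRPA had at most 37 counts.

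**Figure D1:**
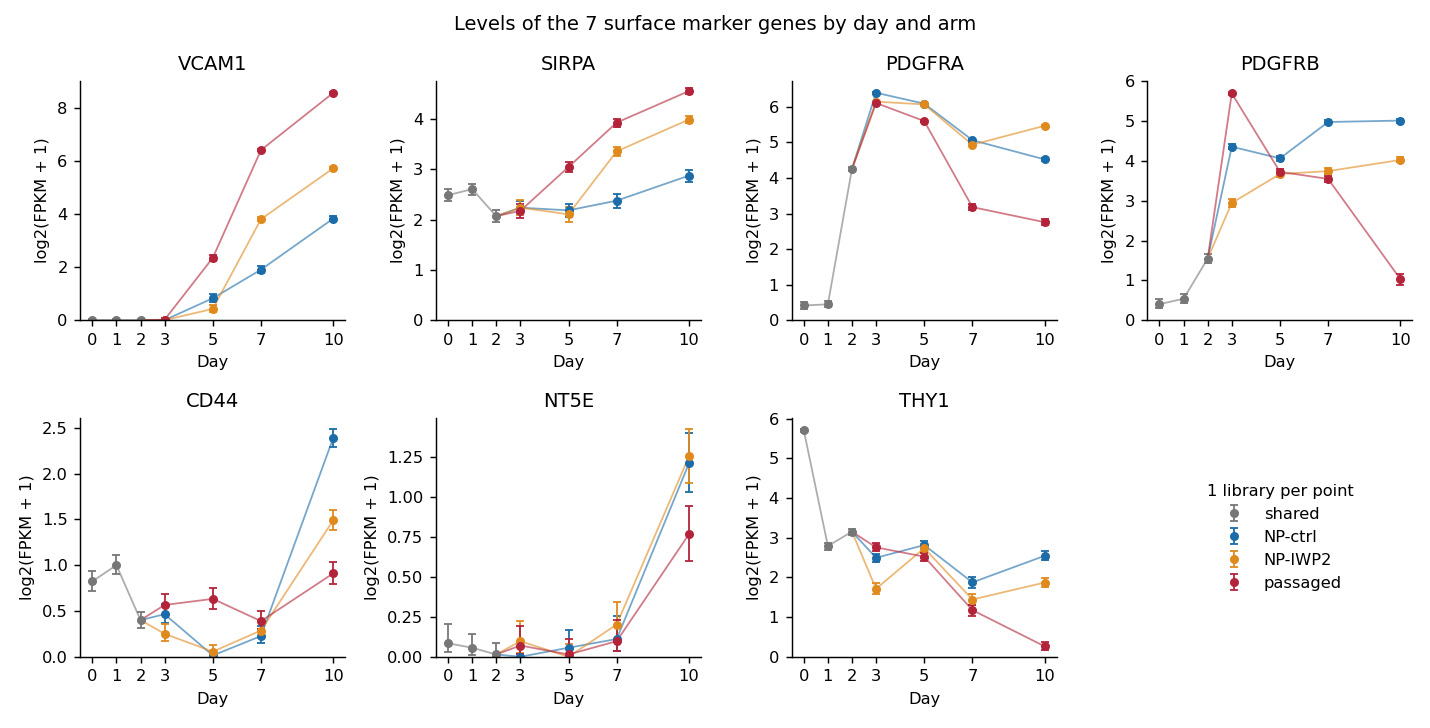
Levels of the 7 genes, as log2(FPKM + 1), against day, with 1 library per point, gray for the shared days and colours for the arms, bars giving 95% counting intervals and lines joining libraries in time. VCAM1 and SIRPA end highest in the passaged arm (379 and 22.6 FPKM on Day 10), while PDGFRA, PDGFRB, CD44, NT5E and THY1 end lowest there, NT5E with bars that come close to those of the other arms.

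PDGFRA appeared on Day 2 and was lost fastest in the passaged arm. The gene (ENSG00000134853, chromosome 4, 54229280 to 54298245) was at 0.33 and 0.36 FPKM on Days 0 and 1 and at 18.1 on Day 2, a rise of 49.7-fold (38.9 to 64.7) over Day 1. On Day 3 NP-ctrl was at 83.4 FPKM, NP-IWP2 at 69.9 and the passaged library at 68.1, its highest level in every arm. The passaged and NP-IWP2 libraries were within counting error of each other then (ratio 0.974, 0.946 to 1.003). On Days 5, 7 and 10 PDGFRA was at 47.6, 8.06 and 5.75 FPKM in the passaged arm, at 66.2, 29.6 and 43.3 in NP-IWP2 and at 67.2, 32.5 and 22.0 in NP-ctrl. The passaged library was the lowest on all 3 days, and NP-IWP2 was the arm in which PDGFRA was higher on Day 10 than on Day 7. On Day 10 the level was 3.82-fold (3.54 to 4.13) higher in NP-ctrl and 7.53-fold (7.01 to 8.10) higher in NP-IWP2 than in the passaged library. PDGFRA lies inside a same-strand read-through gene model that had 0 counts in all libraries, and reads shared with it may have been left uncounted.

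PDGFRB changed its order among the arms. The gene (ENSG00000113721, chromosome 5, 150113839 to 150155872) was at 0.32, 0.45 and 1.92 FPKM on Days 0, 1 and 2. On Day 3 it reached 50.9 FPKM in the passaged arm, while NP-IWP2 was at 6.69 and NP-ctrl at 19.5, which put the passaged library 2.61-fold (2.48 to 2.74) above NP-ctrl and 7.61-fold (7.00 to 8.27) above NP-IWP2. From Day 2 to Day 3 the passaged level rose 26.4-fold (23.4 to 29.9). On Days 5, 7 and 10 PDGFRB was at 12.2, 10.7 and 1.04 FPKM in the passaged arm, at 11.7, 12.4 and 15.3 in NP-IWP2 and at 15.7, 30.5 and 31.3 in NP-ctrl. The passaged library thus went from the highest on Day 3 to the lowest on Days 7 and 10, and on Day 5 it could not be separated from NP-IWP2 (ratio 1.04, 0.962 to 1.13). On Day 10 PDGFRB was 30.1-fold (24.9 to 36.6) higher in NP-ctrl and 14.7-fold (12.1 to 17.9) higher in NP-IWP2 than in the passaged library.

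The balance of the PDGF receptors, as the ratio of PDGFRA to PDGFRB FPKM, also differed between arms. In NP-ctrl it was 4.27, 4.28, 1.06 and 0.702 on Days 3, 5, 7 and 10. In NP-IWP2 it was 10.5, 5.64, 2.39 and 2.84, and in the passaged arm 1.34, 3.89, 0.753 and 5.53. NP-IWP2 kept PDGFRA above PDGFRB on all 4 days, whereas PDGFRB was the higher on Day 10 in NP-ctrl and on Day 7 in the passaged arm. The last rests on the length scaling, since the counts of that library were 1154 for PDGFRA and 1145 for PDGFRB.

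**Figure D2:**
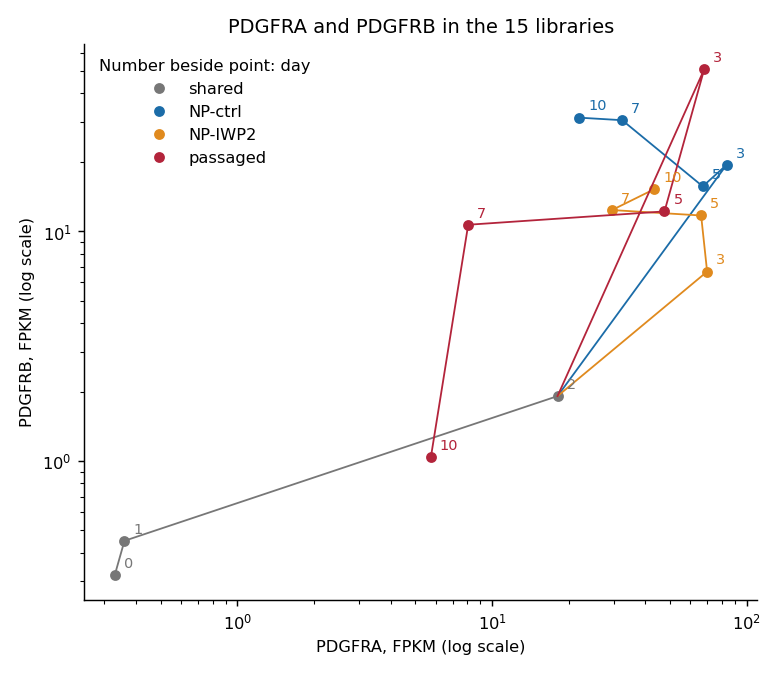
PDGFRB against PDGFRA in FPKM, both axes on a log scale, with 1 point per library numbered by day and lines joining the libraries of an arm in time from Day 2. The passaged arm starts with the highest PDGFRB (50.9 FPKM on Day 3) and ends at the lowest PDGFRA and PDGFRB of any library after Day 2 (5.75 and 1.04 FPKM on Day 10).

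CD44 and NT5E were the scarcest members. CD44 (ENSG00000026508, chromosome 11, 35138882 to 35232402) was at 0.77, 1.00 and 0.32 FPKM on Days 0, 1 and 2. On Days 3, 5, 7 and 10 it was at 0.38, 0.01, 0.17 and 4.24 FPKM in NP-ctrl, at 0.19, 0.04, 0.22 and 1.81 in NP-IWP2 and at 0.48, 0.55, 0.31 and 0.88 in the passaged arm. On Day 5 the unpassaged libraries were near 0, with 2 counts in NP-ctrl and 6 in NP-IWP2 against 84 in the passaged library, a passaged to NP-ctrl ratio of 43.1 with a wide interval (11.6 to 362). By Day 10 the order was turned: CD44 was 4.81-fold (3.98 to 5.85) higher in NP-ctrl than in the passaged library and 2.35-fold (2.03 to 2.71) higher in NP-ctrl than in NP-IWP2.

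NT5E (ENSG00000135318, chromosome 6, 85449584 to 85495791) had at most 11 counts in any library before Day 10. On Day 10 NP-ctrl was at 1.31 FPKM (80 counts), NP-IWP2 at 1.38 (99 counts) and the passaged library at 0.70 (48 counts). The unpassaged arms were not separable (NP-IWP2 to NP-ctrl 1.05, 0.776 to 1.43), and the passaged library was the lowest, NP-ctrl being 1.88-fold (1.30 to 2.75) and NP-IWP2 1.98-fold (1.39 to 2.86) above it.

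THY1 was highest in the undifferentiated cells. The gene (ENSG00000154096, chromosome 11, 119415476 to 119424985) was at 51.4 FPKM on Day 0, 5.93 on Day 1 and 7.90 on Day 2, so that Day 1 held 0.115 (0.107 to 0.124) of the Day 0 level. On Days 3, 5, 7 and 10 it was at 4.64, 6.04, 2.67 and 4.84 FPKM in NP-ctrl, at 2.28, 5.67, 1.72 and 2.66 in NP-IWP2 and at 5.77, 4.75, 1.26 and 0.20 in the passaged arm. The passaged library was the highest on Day 3 and the lowest from Day 5. On Day 10 THY1 was 24.2-fold (15.7 to 39.5) higher in NP-ctrl and 13.3-fold (8.55 to 21.8) higher in NP-IWP2 than in the passaged library. THY1 overlaps the antisense gene USP2-AS1, which had at most 44 counts in a library. Whether the counting used strand is not given in the sources used here, so reads of the overlap cannot be assigned with certainty.

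The share of each gene in the summed FPKM of the 7 shifted over the time course. THY1 was 89.4% of the sum on Day 0, and THY1 and SIRPA made up 46.0% and 39.6% on Day 1. PDGFRA led on Day 2 with 57.5% and in every arm on Days 3 and 5. On Day 10 the leading member was PDGFRB in NP-ctrl (37.6%, with PDGFRA at 26.4% and VCAM1 at 15.9%), VCAM1 with IWP2 (39.5%, with PDGFRA at 33.0%) and VCAM1 in the passaged library (92.4%). By counts, without the length scaling, PDGFRA led in NP-IWP2 with 43.4%, ahead of VCAM1 with 32.9%. The sums on Day 10 were 83.2, 131 and 410 FPKM in NP-ctrl, NP-IWP2 and the passaged arm.

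**Figure D3:**
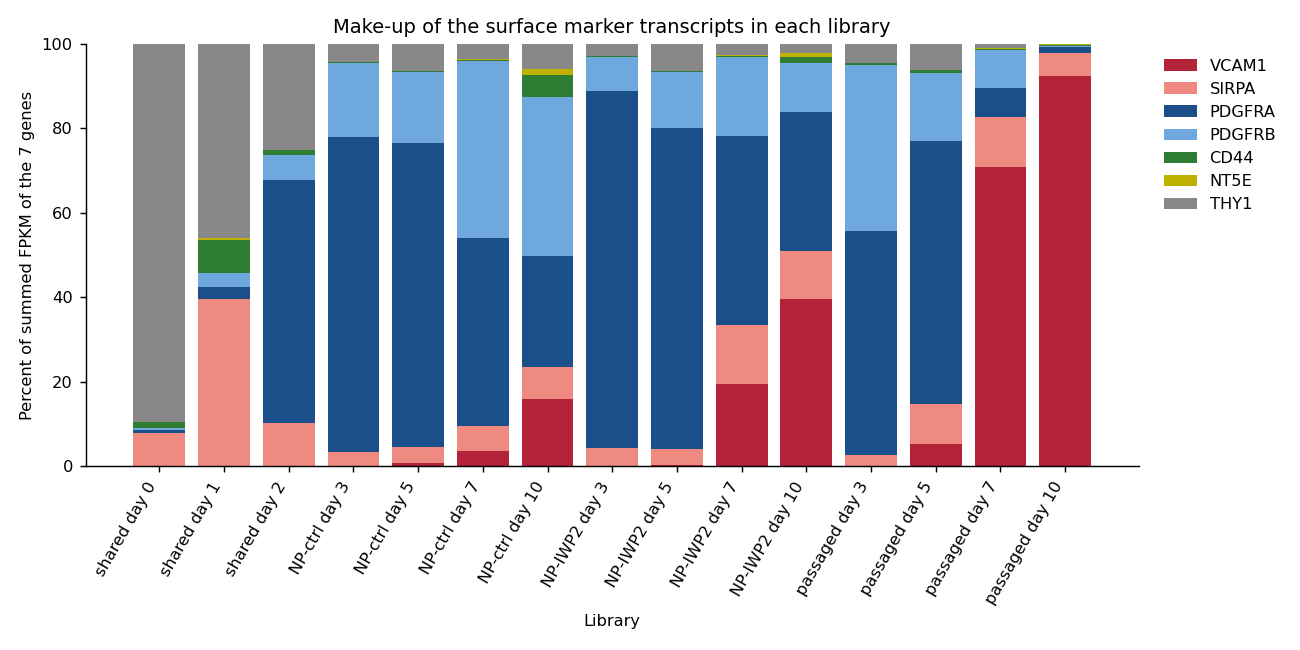
Each bar is 1 library and divides the summed FPKM of the 7 genes into percent per gene. THY1 fills most of the Day 0 bar (89.4%), PDGFRA and PDGFRB most of the Day 3 bars, and VCAM1 most of the passaged bars of Day 7 (70.8%) and Day 10 (92.4%).

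For a count of members, a difference of at least 1 in log2(FPKM + 1) between the libraries of a day was taken as past the threshold, with the share of all 21206 genes past it as background. The choice of members used these same contrasts, so nothing is read from the counts against that background. Passaged against NP-ctrl, 1 of 7 members was past the threshold on Day 3 (PDGFRB higher; 8.49% of all genes), 1 on Day 5 (VCAM1 higher; 8.16%) and 4 on Day 7 (VCAM1 and SIRPA higher, PDGFRA and PDGFRB lower; 12.6%). On Day 10 it was 6 of 7 (VCAM1 and SIRPA higher, PDGFRA, PDGFRB, CD44 and THY1 lower), beside 17.4% of all genes. NP-IWP2 against NP-ctrl, PDGFRB was past it on Day 3 (lower, 4.15% of all genes), no member on Day 5 (2.97%), VCAM1 (higher) and PDGFRB (lower) on Day 7 (7.26%), and VCAM1 and SIRPA (higher) on Day 10 (9.35%). Passaged against NP-IWP2, PDGFRB and THY1 were higher on Day 3 (8.70% of all genes), VCAM1 higher on Day 5 (7.51%), VCAM1 higher and PDGFRA lower on Day 7 (6.69%). On Day 10 VCAM1 was higher and PDGFRA, PDGFRB and THY1 were lower, beside 10.1% of all genes. NT5E was past the threshold in no comparison. The comparisons of a day share their libraries. On Day 10 the median log2 difference of the 7 members was -1.48 for passaged minus NP-ctrl, 0.04 for NP-IWP2 minus NP-ctrl and -0.58 for passaged minus NP-IWP2, beside medians over all genes of -0.09, 0 and -0.06.

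**Figure D4:**
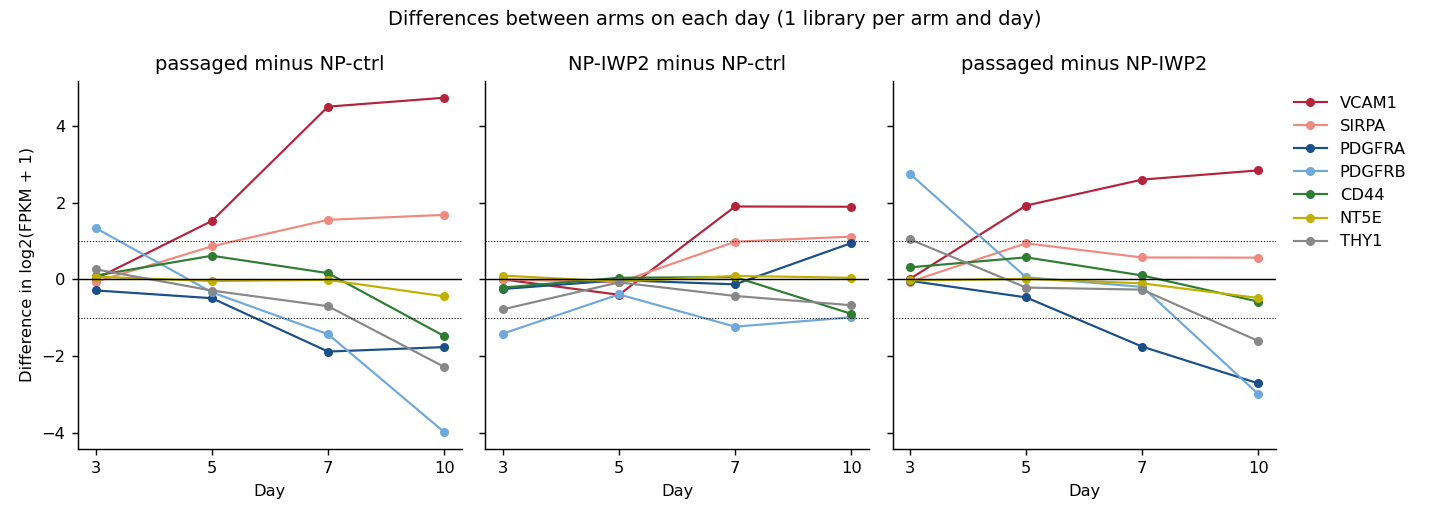
Difference in log2(FPKM + 1) between arms against day (days evenly spaced) for the 7 genes, 1 panel per pair of arms, with dotted lines at the threshold of 1 in either direction. On Day 10 the passaged minus NP-ctrl panel spreads from 4.74 for VCAM1 to -3.99 for PDGFRB, while in the NP-IWP2 minus NP-ctrl panel VCAM1 and SIRPA lie above the upper line and no gene below the lower one.

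Marker genes of some cell types also differed between the arms. The lowest and highest summed FPKM of 7 cardiomyocyte genes over Days 3 to 10 were 16.7 and 3517 in the passaged arm, 7.87 and 2064 with IWP2 and 10.4 and 560.9 in NP-ctrl. The Day 10 sums were 3517, 1382 and 435.3, and 7 of 7 genes were at least 1 higher on the log2 scale in the passaged library than in NP-ctrl. For 8 fibroblast and stromal genes the lowest and highest sums were, in the same order of arms, 118 and 449.4, 84.9 and 1316, and 90.6 and 4526. On Day 10 they were 118, 1238 and 4526, and 8 of 8 genes were at least 1 lower in the passaged library than in NP-ctrl. There the collagen gene COL3A1 stood at 2352, 628 and 61.2 FPKM in NP-ctrl, NP-IWP2 and the passaged arm, and TCF21, a transcription factor of cardiac fibroblast precursors, at 6.91, 6.18 and 0. With IWP2, 8 of 8 fibroblast and stromal genes were below NP-ctrl on Day 10, while PDGFRA was 1.97-fold (1.89 to 2.06) and PDGFRB 0.488-fold (0.460 to 0.518) the NP-ctrl level. The part of these cell types in the levels of VCAM1, SIRPA, PDGFRA, PDGFRB and THY1 was not tested.

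For 4 epicardial and mesothelial genes the sums lay within 25.8 to 82.7 FPKM in the passaged arm, 6.77 to 93.5 in NP-IWP2 and 6.98 to 117.2 in NP-ctrl. On Day 10, 3 of 4 were lower past the threshold in the passaged library than in NP-ctrl. The 3 hepatic and yolk sac endoderm genes (sums within 1.16 to 17.8, 0.2 to 1092 and 0.34 to 3666, passaged arm first and NP-ctrl last) were lower for 3 of 3. The 5 pericyte and smooth muscle genes had sums within 41.6 to 525.3, 14.4 to 233.9 and 20.1 to 197.6. On Day 10, 1 of 5 was past the threshold against NP-ctrl, higher in the passaged library, beside 17.4% of all genes. By sign 4 were higher and 1 lower, with a median log2 difference of 0.10. The part of mural cells in the level of PDGFRB was not tested. RGS5, a pericyte gene, was on Day 10 at 79.0, 35.4 and 27.0 FPKM, in the same order with the passaged arm first. Endothelial sums lay between 23.7 and 171.6 FPKM, blood sums between 0.07 and 0.64 and pluripotent sums between 1.68 and 124.2 over all arms from Day 3. On Day 10 the 5 endothelial genes summed to 124.9, 127.4 and 126.9 FPKM, passaged arm first and NP-ctrl last. By sign 4 were lower and 1 higher in the passaged library than in NP-ctrl, with 1 lower past the threshold (17.4% of all genes). Against NP-IWP2 4 were lower and 1 higher, with 3 lower past it (10.1%). Of these genes KDR, a receptor for VEGF that early mesoderm also makes, was at 119 FPKM in the passaged library of Day 10, where PECAM1 was at 0.30 and CDH5 at 0.36. The part of endothelial cells in the level of VCAM1 was not tested.

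The mesenchymal surface definition was checked with the remaining genes. ENG was at 4.71, 7.57 and 4.56 FPKM on Day 10 in NP-ctrl, NP-IWP2 and the passaged arm, where NT5E was at 1.31, 1.38 and 0.70 and THY1 at 4.84, 2.66 and 0.20. Of the markers that should be missing, PTPRC did not go above 0.02 FPKM and CD14 not above 0.64 in any library, whereas CD34 was at 0.57, 1.18 and 0.14 on Day 10. Bulk libraries do not say whether these transcripts were in the same cells. Other surface markers used in sorting included MCAM, at 1.91, 2.77 and 9.60 FPKM on Day 10, ALCAM, at 9.31, 7.62 and 15.9, and CORIN, a cardiac protease, at 3.50, 7.77 and 8.54. Of 11 such markers, 3 were past the threshold higher and 1 lower in the passaged library than in NP-ctrl on that day. By sign alone 6 were higher and 5 lower than in NP-ctrl, and 5 were higher and 6 lower than in NP-IWP2. MCAM, ALCAM and CORIN, picked after their values were seen, were all highest in the passaged library and do not stand for the list.

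Genes that bind, supply or follow the members were tested across arms with edgeR, over Days 3 to 10 with day as a block. The 4 days of an arm thus stood in for replicates, which the design lacks. The p-values set an arm difference against the variation left in the 3 arms after day, not against that between cultures. Of 42 listed partner genes, 37 were above the filter. Passaged against NP-ctrl, 7 of 37 (18.9%) passed an adjusted p of 0.05, of which 3 were higher and 4 lower, beside 4.40% of all genes. At an unadjusted p under 0.05 there were 22. NP-IWP2 against NP-ctrl none did in edgeR (5 unadjusted, 0.0189% of all genes), nor with DESeq2 or limma, and passaged against NP-IWP2 1 did (13 unadjusted, 1.33% of all genes). With limma on log2(FPKM + 1) no partner gene passed, and with the third arm left out of the fit none passed for passaged against NP-ctrl. Without Day 5 or without Day 7 the count for passaged against NP-ctrl fell to 1, so these calls rest on few libraries. The partner genes were chosen with earlier results of these data known, so nothing is read from their shares against those of all genes.

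Among the binding partners of VCAM1, 1 of 5 tested genes changed between the passaged arm and NP-ctrl. ITGA9, an integrin alpha chain that binds VCAM1, fell by 1.64 (SE 0.40) on the log2 scale, with an adjusted p of 0.044 in edgeR. It went from 14.4 FPKM on Day 3 to 2.79 on Day 10 in NP-ctrl and from 8.35 to 0.89 in the passaged arm, and was the lower in the passaged library on each of the 4 days. ITGA4, the other VCAM1-binding alpha chain, did not go above 0.17 FPKM in any library, and ITGB1, their beta chain, was between 22.7 and 54.1 FPKM. In the passaged library of Day 10, where VCAM1 was highest, ITGA9 was at its lowest. EZR, an ezrin-family linker of membrane proteins to actin, was named for its Day 10 levels of 255.6, 101.6 and 52.9 FPKM in NP-ctrl, NP-IWP2 and the passaged arm, but did not pass the test.

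Of the 4 SIRPA partners tested, THBS1 rose in the passaged arm. THBS1, a secreted ligand of CD47, was higher than in NP-ctrl by 1.79 (SE 0.38) on the log2 scale, with an adjusted p of 0.0258 in edgeR. It stood at 1.28, 18.0, 33.0 and 15.3 FPKM on Days 3, 5, 7 and 10 in the passaged arm and at 1.14, 4.60, 4.62 and 4.51 in NP-ctrl, higher on each day and by the least on Day 3. CD47 itself, the ligand of SIRPA, was at 5.59 FPKM in the passaged library on Day 10 with NP-IWP2 at 18.7 and NP-ctrl at 17.5, and did not pass the test.

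Of the 4 PDGF ligands, PDGFD, which acts on PDGFRB, rose in the passaged arm against NP-ctrl by 1.56 (SE 0.35) on the log2 scale, with an adjusted p of 0.0332 in edgeR. It was at 3.58, 5.73, 9.29 and 46.7 FPKM on Days 3, 5, 7 and 10 in the passaged arm and at 0.88, 1.56, 8.09 and 14.9 in NP-ctrl. On Day 10 PDGFD was thus at 46.7 FPKM in the arm with the least PDGFRB, 1.04 FPKM. PDGFD was also higher past the threshold in NP-IWP2 than in NP-ctrl on Day 10, where PDGFRB was at 15.3 FPKM in NP-IWP2. Between the passaged arm and NP-IWP2 PDGFD was not past the threshold on Day 10. On that day, in the passaged library and in NP-ctrl, PDGFA was at 5.51 and 4.53 FPKM, PDGFB at 5.89 and 1.77 and PDGFC at 7.13 and 7.48, and none of these passed the test.

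For CD44, 1 of 12 tested genes of hyaluronan and its receptors changed between the passaged arm and NP-ctrl. HAS1, a hyaluronan synthase, fell by 2.31 (SE 0.49) on the log2 scale (adjusted p of 0.024 in edgeR), from low levels: 2.03, 0.86, 0.88 and 0.83 FPKM in NP-ctrl against 0.49, 0.23, 0.06 and 0.18 in the passaged arm on Days 3, 5, 7 and 10. SPP1 (osteopontin), a CD44 ligand, was the gene that changed between the passaged arm and NP-IWP2, higher by 3.17 (SE 0.57) on the log2 scale (adjusted p of 0.0251 in edgeR). Its level was 0.17, 1.48, 10.1 and 1.06 FPKM in the passaged arm and 0.06, 0.09, 0.93 and 0.23 in NP-IWP2, higher in the passaged library on each of the 4 days.

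In the adenosine pathway of NT5E, 2 of 9 tested genes changed, both lower in the passaged arm than in NP-ctrl. ENTPD3, which makes AMP from ATP and ADP, had 3, 135, 404 and 243 counts on Days 3, 5, 7 and 10 in NP-ctrl and 4, 1, 1 and 3 in the passaged arm (adjusted p of 0.0119 in edgeR). DPP4, a peptidase that anchors adenosine deaminase at the surface, had 15, 652, 288 and 936 counts in NP-ctrl and 16, 14, 5 and 6 in the passaged arm (adjusted p of 0.0241 in edgeR). On Day 3 both genes had few counts in either arm, and with so few passaged counts their fitted log2 changes are no measure of size. On Day 10 the FPKM ratio of NP-ctrl to passaged was 91.6 (31.0 to 447.1) for ENTPD3 and 176 (80.7 to 481.7) for DPP4.

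Of the 3 integrin chains that bind THY1, ITGAV rose in the passaged arm against NP-ctrl by 1.35 (SE 0.26) on the log2 scale, with an adjusted p of 0.0173 in edgeR. It was at 21.4, 50.7, 118 and 104 FPKM on Days 3, 5, 7 and 10 in the passaged arm, at 14.1, 24.4, 27.4 and 38.9 in NP-ctrl and at 15.9, 20.1, 40.1 and 63.7 in NP-IWP2. ITGAV was higher in the passaged library on each of the 4 days, while THY1 there fell to 0.20 FPKM.

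**Figure D5:**
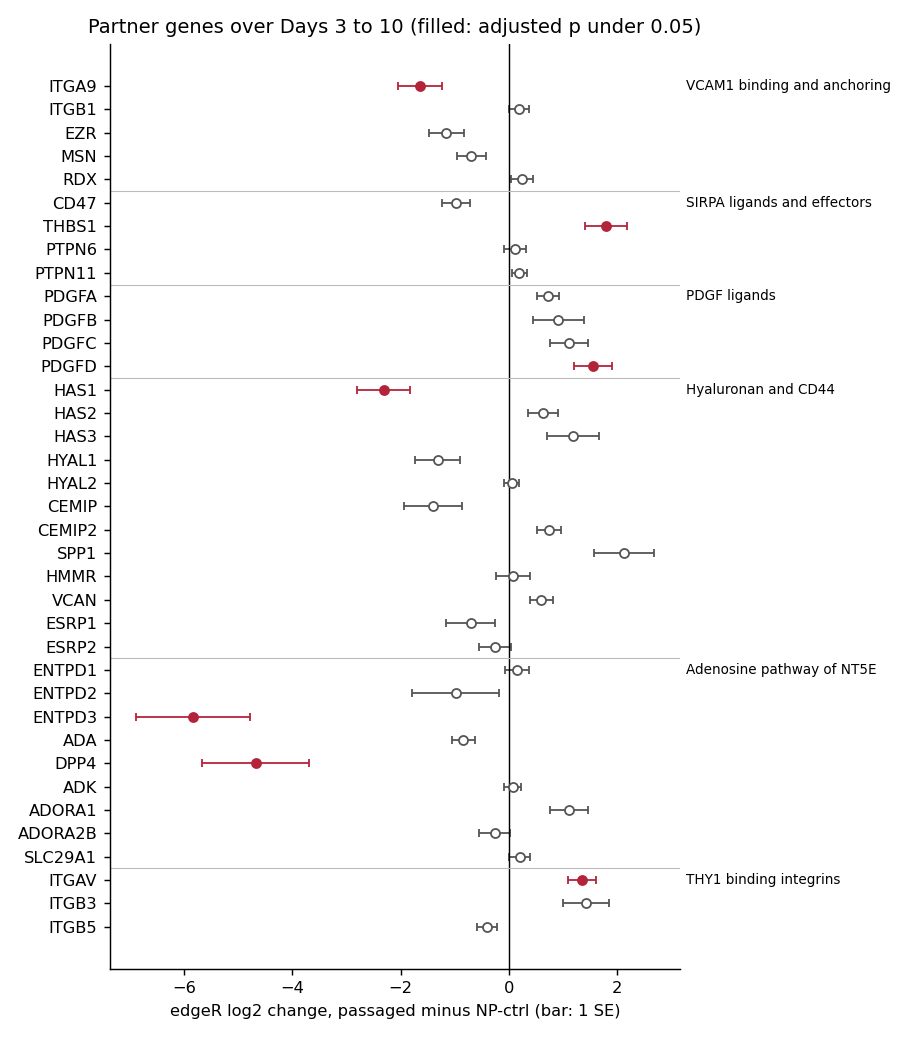
Change between the passaged arm and NP-ctrl over Days 3 to 10 for the 37 partner genes tested, as edgeR log2 change with bars of 1 SE, grouped by the member they belong to and filled where the adjusted p is under 0.05. THBS1, PDGFD and ITGAV are filled on the higher side and ITGA9, HAS1, ENTPD3 and DPP4 on the lower side.

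Across the 15 libraries, the levels of some members ran together. Pearson's r of log2(FPKM + 1) was 0.958 for VCAM1 with SIRPA, 0.795 for PDGFRA with PDGFRB, 0.832 for CD44 with NT5E and -0.684 for VCAM1 with THY1. The libraries are 1 time course and share days and arms, so these values describe the series only. Among protein-coding genes that reached 5 FPKM, the 3 most like VCAM1 were SLC25A12 (0.990), CSRP3 (0.988) and REEP3 (0.986), and those most like SIRPA were SELENOT (0.976), SLC25A12 (0.975) and PCGF5 (0.972), SLC25A12 being on both lists. PDGFRA was most like CSAD (0.955), GATA3 (0.947) and PRKD1 (0.943), and PDGFRB most like SELENBP1 (0.935), FYN (0.932) and SEMA3B (0.910). For CD44 the genes were CLDN1 (0.905), SERPIND1 (0.873) and TKTL1 (0.868), for NT5E TM4SF1 (0.959), LRRC17 (0.950) and F2RL2 (0.948), and for THY1 RBM47 (0.893), MB21D2 (0.882) and CHST7 (0.881). By Spearman's rank correlation the 3 nearest genes were others for each member, with FYN for PDGFRB the only gene kept.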

How the data were processed

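RNA of 15 H1 libraries was sequenced. The authors deposited a table of read counts and FPKM per gene. Per the submitters' processing notes, Cutadapt 1.9.1, HISAT2 2.0.1, HTSeq 0.6.1 and DESeq2 were used with build hg38. The labels name a long-read library kit beside these short-read tools, so what the scaling by gene length does to levels compared between genes is unsure. Coordinates are those of the table and are identical in GENCODE 44 for all 7 members. The deposited counts, divided by gene length and library total, gave the deposited FPKM to within 0.005. Groups came from sample titles, with 1 library each. The members, partner genes and cell type lists were chosen with earlier results of these data known. Genes named are the 7 members, the 3 protein-coding genes most correlated with each, and partner genes that passed the arm test or differed by at least 2 on the log2 scale on Day 10. Other partner genes and marker genes given with values were chosen after their values were seen. The gene filter was an FPKM of at least 1 in any library. A library at 3 counts or fewer was taken as at the floor, and no ratio was given where both were. Partner genes were tested with edgeR 4.0.16 in R 4.3.3 (quasi-likelihood, day as block, 12 libraries of 3 arms, Benjamini-Hochberg over 21206 genes). The code was tried on simulated counts with the same arm effect on every day, whereas member differences here changed with day. That trial does not bear on the p-values. Alternatives used DESeq2 1.42.0, limma 3.58.1, other scalings, pseudocounts and filters, and each day left out. Correlations and intervals used pandas 2.3.3 and scipy 1.17.1.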

Additional observations from a re-analysis of the deposited data

Results flagged for a closer look

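For PDGFRB the difference between arms had opposite signs on Day 3 and Day 10. Passaged minus NP-ctrl was 1.34 on the log2(FPKM + 1) scale on Day 3 and -3.99 on Day 10, and passaged minus NP-IWP2 was 2.75 and -2.996. For THY1, passaged minus NP-IWP2 was 1.05 on Day 3 and -1.61 on Day 10. These differences between days were not tested, since each arm and day is 1 library.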

How the results depend on the processing

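All 26 of the 84 member differences between arms that were past a log2 difference of 1 stayed past it, with the same sign, under TPM, median-of-ratios size factors and a pseudocount of 0.1. For passaged minus NP-ctrl on Day 10, TPM moved the median log2 difference of all genes by -0.286, from -0.09 to -0.376, and member differences under TPM should be read against that shift. With TPM the count of members past the threshold became 2 for passaged against NP-ctrl on Day 5, 4 for NP-IWP2 against NP-ctrl on Day 10 and 3 for passaged against NP-IWP2 on Day 5. With a pseudocount of 0.1 these were 3, 4 and 3. Other counts moved by less. Passaged against NP-ctrl on Day 7 went from 4 to 5 with TPM and with a pseudocount of 0.1. Passaged against NP-IWP2 on Day 10 went from 4 to 5 with TPM. NP-IWP2 against NP-ctrl on Day 7 went from 2 to 3 with median-of-ratios size factors and with a pseudocount of 0.1. At a threshold of 2 the counts on Days 3, 5, 7 and 10 were 0, 0, 1 and 3 for passaged against NP-ctrl and 0 on each day for NP-IWP2 against NP-ctrl. For passaged against NP-IWP2 they were 1, 0, 1 and 3. Shares of all genes past the threshold under these settings are not given here either, so nothing is read from the member counts.

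Of 37 partner genes, NP-IWP2 against NP-ctrl had 0, 2 and 3 past the threshold of 1 on Days 3, 5 and 7 in the main setting. These counts became 1, 4 and 6 with TPM and 1, 6 and 7 with a pseudocount of 0.1. Passaged against NP-IWP2 gave 12 on Day 10 with TPM (7 in the main setting) and 7 on Day 3 with a pseudocount of 0.1 (4 in the main setting). Other partner counts changed too, such as passaged against NP-ctrl on Day 10, from 13 to 17 with TPM and 18 with a pseudocount of 0.1. Shares of all genes under these settings are not given, so nothing is read from the counts. At a threshold of 2 the partner counts were 0, 0, 5 and 3 for passaged against NP-ctrl, 0 on Days 5, 7 and 10 for NP-IWP2 against NP-ctrl, and 0, 0, 1 and 0 for passaged against NP-IWP2.

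The partner calls depended on the fit, and shares of all genes under these alternative fits are not given, so the counts have no background here. Passaged against NP-ctrl gave 17 with DESeq2, 0 with limma on log2(FPKM + 1), 19 without the filter and 0 when the third arm was left out of the fit. NP-IWP2 against NP-ctrl gave 0 with DESeq2, 1 without the filter and 2 without the third arm. Passaged against NP-IWP2 gave 9, 0 and 12 with DESeq2, limma and no filter. Leaving out a day gave between 1 and 15 calls for passaged against NP-ctrl (15 without Day 3, 1 without Day 5, 1 without Day 7, 2 without Day 10) and between 0 and 5 for passaged against NP-IWP2. The cause was not tested. The 8 called log2 changes kept their sign in every alternative run. The arms were paired by day in the fit, and no replicates within an arm and day could be paired. With 1 library each, the intervals cover counting error and not the spread between cultures.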
